A study of Mus musculus with 43 samples.

Results

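Slc8a1, Slc8a2 and Slc8a3 encode the sodium-calcium exchangers NCX1, NCX2 and NCX3. All probe sets annotated to these 3 genes were taken from the array, 8 of 45007 in all. Slc8a1 had 4 of them, Slc8a2 had 2 and Slc8a3 had 2. Slc8a3 was chosen by these measured values, because of its difference after loss of Foxl2, a difference that was smaller in ovaries without Wnt4, so its values in the Foxl2 comparisons are given as a description without a test. The other exchangers came with it as the rest of the family, and were tested in every comparison.

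Exchangers of this family sit in the plasma membrane and move calcium out of the cell against an inward flow of sodium, and can run in reverse when the membrane is depolarised. They work beside the plasma membrane calcium pumps, and the sodium gradient they use is made by the sodium pump. Slc8a1 is the widespread member and is best known from heart and smooth muscle. Slc8a2 is known mainly from brain, and Slc8a3 from brain and skeletal muscle. Foxl2, a forkhead transcription factor of granulosa cells, and Wnt4, a secreted signal, are both needed for normal ovary development.

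Whole gonads of 43 mice in 15 groups were hybridised to Affymetrix mouse arrays, with 3 arrays per group except in the E15 groups, which had 2 each. E marks days of embryonic development and P0 the day of birth. At E13 the groups were testis, Foxl2-/- ovary and control ovary, the last labelled Foxl2+/-. At E15 they were Wnt4-null ovary and control ovary, the last labelled Wnt4+/-. At E16 they were Foxl2-/- ovary, Foxl2+/- ovary and ovary with no genotype in its label. At P0 they were testis, Wnt4-/-Foxl2-/- double null ovary, Wnt4-/- ovary, KitWvWv Foxl2-/- double mutant ovary, KitWvWv ovary, Foxl2-/- ovary and ovary with no genotype in its label. The Wnt4-/- and KitWvWv ovaries of P0 were labelled Foxl2+/- as well, so loss of Wnt4 or Kit at P0 came together with loss of 1 copy of Foxl2. The testes had no genotype in their labels, and the ovaries with none are called wild-type below. By the study's account the P0 testes were taken from males null for Wnt4, in which testis differentiation is partly impaired. In every comparison with these testes, sex or stage therefore cannot be told apart from loss of Wnt4. The study called the E13 control littermates wild-type, and gave the E15 mice another mixed background than the others. By its account the KitWv allele, which deprives the ovary of most germ cells, lowers Kit function without abolishing it.

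Levels are given as multiples of the mean intensity of an array, which is the same in every array. The median probe set had a level of 0.256. Detection calls were not used here, so a low level cannot be told from background. The array checks went with the labels. Foxl2 lay between 0.606 and 7.64 in all Foxl2-/- groups, against 5.13 to 32.6 in the other ovaries, and each null group lay below its own reference. The second Foxl2 probe set was at 0.00635 or less in the nulls, against 0.118 to 0.586 in the other ovaries. Wnt4 was at 0.414 or less in the Wnt4-null groups and at 0.581 or more in the other ovaries. Between replicates, log2 values correlated at 0.922 to 0.982 over probe sets.

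The promoter windows of Slc8a3 and Slc8a1 are shown because these were the 2 exchanger genes with the widest range of levels, and FOXL2 is a forkhead factor while TCF and LEF factors act in Wnt signalling. The RefSeq windows run 5′ to 3′ along the gene, on the minus strand of build GRCm38.p6, with 250 bases before the annotated start and 50 after it; all 3 members matched a window. The Slc8a3 window is chr12:81333131-81333430 and the Slc8a1 window is chr17:81738338-81738637. Capitals mark a match to one of 4 motifs, searched on both strands, and the motifs were chosen with the sequences in view.
Slc8a3: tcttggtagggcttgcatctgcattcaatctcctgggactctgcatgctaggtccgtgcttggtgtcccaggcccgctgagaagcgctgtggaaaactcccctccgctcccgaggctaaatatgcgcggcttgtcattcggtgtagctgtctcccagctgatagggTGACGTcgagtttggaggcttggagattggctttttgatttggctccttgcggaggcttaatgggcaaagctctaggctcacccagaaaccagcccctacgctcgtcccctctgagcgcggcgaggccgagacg
Slc8a1: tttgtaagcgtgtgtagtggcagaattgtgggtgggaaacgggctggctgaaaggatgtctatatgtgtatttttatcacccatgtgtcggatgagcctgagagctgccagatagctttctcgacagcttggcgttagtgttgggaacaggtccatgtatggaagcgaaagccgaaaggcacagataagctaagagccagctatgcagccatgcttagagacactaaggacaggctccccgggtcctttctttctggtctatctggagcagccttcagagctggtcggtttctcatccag
The motifs were TAAACA for forkhead factors, CTTTGA for TCF and LEF, AAGGTCA for SF-1 and TGACGT for the core of the cyclic AMP response element. Of 32851 such promoter windows in the table, 13.4% held TAAACA, 16% CTTTGA, 4.72% AAGGTCA and 7.51% TGACGT. The Slc8a3 window held TGACGT once, beginning at -84 relative to the start, and this was the sole match in the 3 windows, so no matches overlapped. The Slc8a2 window is not printed.

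By 1 of its 2 probe sets, Slc8a3 was above its reference group in every array that lacked Foxl2 and kept Wnt4. By this probe set, 1440962_at, the brighter one, the 12 arrays of these 4 groups lay between 0.216 and 0.839, and the 28 arrays with Foxl2 not null, testes included, lay between 0.00839 and 0.243. Only 1 of those 28 arrays, a Wnt4-/- ovary of P0 at 0.243, reached into the range of the 12. The 3 arrays without Foxl2 and Wnt4 lay between 0.120 and 0.254.

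At E13 the level was 0.216, 0.295 and 0.277 in Foxl2-/- ovaries, against 0.0353, 0.0680 and 0.0814 in control ovaries. At E16 it was 0.430, 0.269 and 0.328 in Foxl2-/- ovaries, against 0.0342, 0.00839 and 0.0968 in wild-type ovaries. At P0 it was 0.597, 0.839 and 0.619 in Foxl2-/- ovaries, against 0.0434, 0.101 and 0.0779 in wild-type ovaries. The groups did not overlap at any of the 3 stages. On the scale of log2 of the intensity plus 1% of the array mean, used for every difference below, the differences were 1.98 ± 0.42 at E13, 2.97 ± 0.42 at E16 and 3.09 ± 0.42 at P0 (SE, n = 3 per group), or 3.94-fold, 7.81-fold and 8.54-fold. The E16 value was 2.33 without the second wild-type array and 3.60 without the third. Averaged over the 3 stages the difference was 2.68 ± 0.24. The offset of 1% makes these differences smaller than ratios of raw levels where a level is low. Across all 45007 probe sets, 2.06% were called at E13, 0.407% at E16, 0.604% at P0 and 1.54% in the average, at an adjusted p under 0.05 in limma. Those percentages are background for the members tested below and say nothing of Slc8a3, which was picked from these contrasts.

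In the nulls the level was larger at the later stages. The mean was 0.263 ± 0.0417 at E13, 0.342 ± 0.0814 at E16 and 0.685 ± 0.134 at P0 (SD, n = 3 each). In the references it was 0.0616 ± 0.0237 at E13, 0.0465 ± 0.0454 at E16 and 0.0741 ± 0.0290 at P0. Within an array the Foxl2-/- ovaries of P0 placed Slc8a3 above 70.4 to 75.9% of all probe sets, against 18.3 to 36.5% in wild-type ovaries. At the earlier stages it stood nearer the middle in Foxl2-/- ovaries. It was above 44.0 to 58.2% at E13, against 12.7 to 30.8% in control ovaries. At E16 it was above 49.6 to 60.9%, against 1.75 to 22.8% in wild-type ovaries.

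The Kit mutant ovaries, which have few germ cells, showed the same kind of difference. The level was 0.539, 0.801 and 0.682 in KitWvWv Foxl2-/- ovaries, against 0.144, 0.0871 and 0.138 in KitWvWv ovaries, with no overlap, a difference of 2.37 ± 0.42. The summed level of 11 germ cell markers was 0.789 to 1.93 in KitWvWv Foxl2-/- ovaries, against 2.34 to 10.3 in KitWvWv ovaries, and 51.8 to 67.9 in Foxl2-/- ovaries of P0. The Slc8a3 mean was 0.674 ± 0.131 in KitWvWv Foxl2-/- ovaries and 0.685 ± 0.134 in Foxl2-/- ovaries of P0 (SD, n = 3 each). The part of the germ cell markers in the result was not tested.

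Without Wnt4 the groups overlapped. The level was 0.120, 0.199 and 0.254 in Wnt4-/-Foxl2-/- ovaries, against 0.243, 0.112 and 0.0818 in Wnt4-/- ovaries. The difference was 0.45 ± 0.42, or 0.14 without the third Wnt4-/- array and 0.87 without the first. The difference made by loss of Foxl2 was lower without Wnt4 than with it by a log2 value of -2.64 ± 0.60 by 1440962_at, and in Kit mutants by -0.72 ± 0.60. By the second probe set, described below, these changes were -0.93 ± 0.78 without Wnt4 and -1.21 ± 0.78 in Kit mutants, in the opposite order. The references were unlike in Foxl2 dose. They were labelled Foxl2+/- for both double mutants, and were wild-type for the Foxl2-/- ovaries of P0. Markers of the supporting cells also differed between these groups. The summed level of 9 Sertoli cell markers was 25.9 to 28.6 in Wnt4-/-Foxl2-/- ovaries, against 12.0 to 14.0 in Wnt4-/- ovaries. With Wnt4 present it overlapped at P0, at 4.65 to 5.95 in Foxl2-/- ovaries and 4.68 to 6.57 in wild-type ovaries. The summed level of 11 granulosa and pre-granulosa markers, Foxl2 among them, was 3.91 to 8.10 in Wnt4-/-Foxl2-/- ovaries, against 13.3 to 16.8 in Wnt4-/- ovaries, and 23.9 to 33.4 in Foxl2-/- ovaries of P0. Their part in the result was not tested. In whole gonads, fewer cells of a type and less RNA per cell cannot be told apart.

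**Figure D1:**
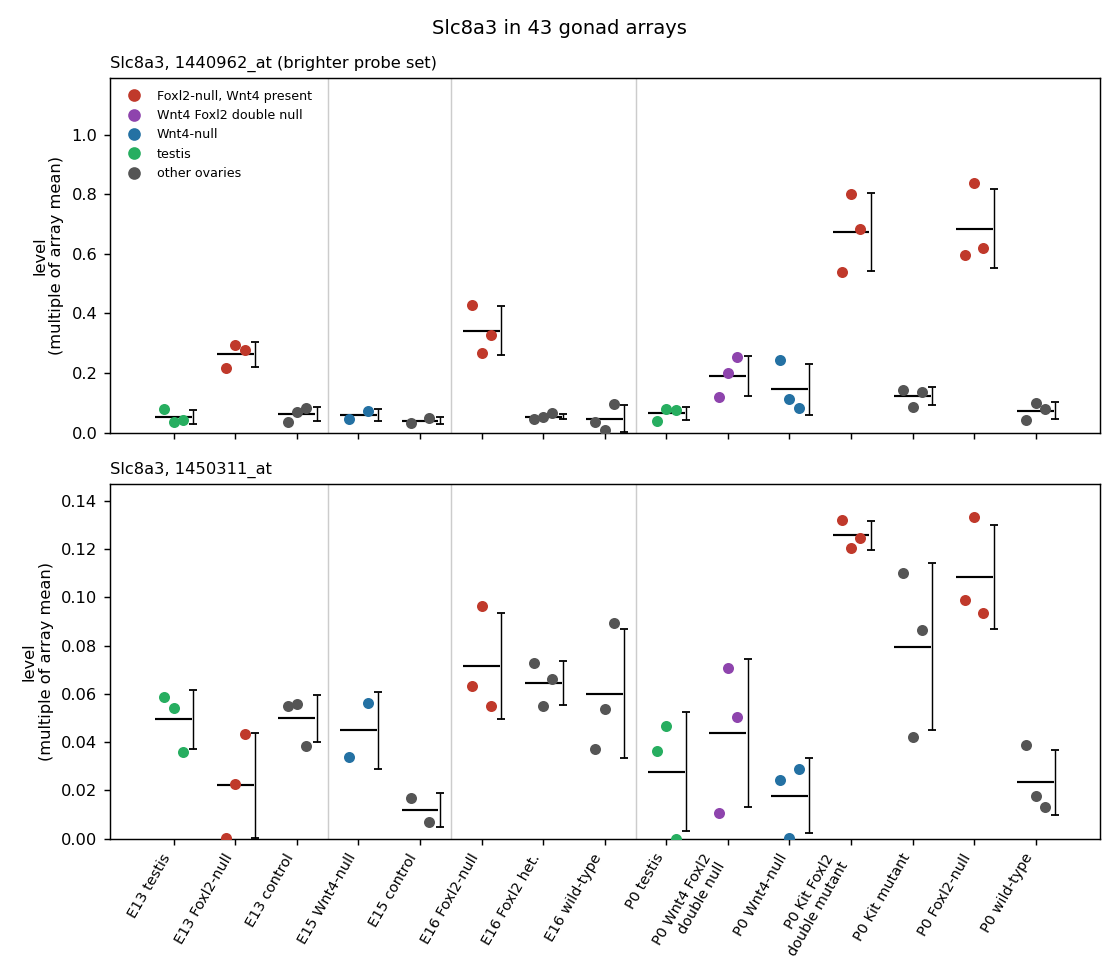
Level of both Slc8a3 probe sets (y axis, multiples of the array mean, from 0) in each of the 43 arrays, by group (x axis, stages divided by grey lines). Points are arrays, horizontal bars are group means and vertical bars are 1 SD, drawn down to 0 at most. In the upper panel the 12 red arrays lie between 0.216 and 0.839, while in the lower panel the highest array is at 0.133 and the E13 nulls are not above their controls.

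The second Slc8a3 probe set, 1450311_at, was dimmer, with all 43 arrays at 0.133 or less, and did not follow the first at every stage. At E13 it was at 0.000144, 0.0226 and 0.0435 in Foxl2-/- ovaries, against 0.0551, 0.0558 and 0.0385 in control ovaries, a difference of -1.18 ± 0.55, opposite in sign to that of 1440962_at. At E16 the groups overlapped, with a difference of 0.25 ± 0.55. At P0 it was at 0.0991, 0.133 and 0.0935 in Foxl2-/- ovaries, against 0.0387, 0.0179 and 0.0133 in wild-type ovaries, a difference of 1.89 ± 0.55 with no overlap. It was at 0.132, 0.120 and 0.125 in KitWvWv Foxl2-/- ovaries, against 0.110, 0.0422 and 0.0865 in KitWvWv ovaries, with no overlap and a difference of 0.68 ± 0.55. In Wnt4-/-Foxl2-/- ovaries against Wnt4-/- ovaries the arrays overlapped, with a difference of 0.96 ± 0.55. So the 2 probe sets had the same sign at E16 and P0 and in both double mutants, and opposite signs at E13. Over the 15 group means, which share arrays and scaling, the log2 levels of the 2 probe sets had a Pearson r of 0.46. Many of the values of 1450311_at were near the 1% offset, where the size of a difference depends on it. With an offset of 16 intensity units, its difference was -3.23 at E13 and 2.36 at P0.

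Slc8a3 is known from muscle and neurons, and markers of these and of other cell types were read beside it. Among 14 striated muscle markers the summed level was 21.4 in the second Foxl2-/- array of E13, against 2.97 and 3.33 in the other Foxl2-/- arrays of that stage and 3.59 to 4.14 in control ovaries. Slc8a3 was at 0.295 in that array and at 0.216 and 0.277 in the other null arrays, all above the controls, and without that array the E13 difference was 1.89. At P0 the muscle sum was 2.97 to 3.57 in Foxl2-/- ovaries, against 2.40 to 2.59 in wild-type ovaries, and at E16 it was 3.93 to 4.19 in Foxl2-/- ovaries, against 3.65 to 4.04 in wild-type ovaries. None of the 14 markers was called in any of these 3 comparisons. The summed level of 11 neuronal and chromaffin markers was 1.74 to 3.09 in Foxl2-/- ovaries of E13, against 1.45 to 1.87 in control ovaries, and 1.83 to 2.14 in Foxl2-/- ovaries of P0, against 2.02 to 2.37 in wild-type ovaries. Snap25, a synaptic protein of neurons, was at 0.0501 to 0.670 in Foxl2-/- ovaries of E13, against 0.0164 to 0.0306 in control ovaries, and was the 1 of the 11 markers called there, higher by 2.71 ± 0.64 (adjusted p = 0.0206). At P0, where none of the 11 was called, Snap25 was at 0.0210 or less in Foxl2-/- ovaries and at 0.0416 or less in wild-type ovaries. The red cell precursor sum was 8.44 to 33.0 in Foxl2-/- ovaries of E16, against 1.22 to 2.54 in wild-type ovaries, and 0.537 to 1.45 in Foxl2-/- ovaries of P0, against 0.622 to 1.97 in wild-type ovaries. Of its markers Hemgn, Ermap, Slc4a1 and Rhag were called higher at E16. For 9 cardiac muscle markers the summed levels did not overlap at the later stages, at 2.69 to 4.43 in Foxl2-/- ovaries of E16, against 2.06 to 2.20 in wild-type ovaries, and at 2.76 to 4.12 in Foxl2-/- ovaries of P0, against 1.69 to 2.72 in wild-type ovaries. Tnni3, the cardiac form of troponin I, was the 1 of the 9 called at E16, higher by 1.28 ± 0.28 (adjusted p = 0.0230, limma), and none was called at P0. The sum of 9 endothelial markers was 7.71 to 7.89 in Foxl2-/- ovaries of E16, against 6.78 to 7.39 in wild-type ovaries, and 7.38 to 8.74 in Foxl2-/- ovaries of P0, against 6.90 to 7.18 in wild-type ovaries, with none of the 9 called. The sum of the granulosa and pre-granulosa markers, Foxl2 included, was 21.3 to 29.8 in Foxl2-/- ovaries of E16, against 34.5 to 37.4 in wild-type ovaries, and 23.9 to 33.4 in Foxl2-/- ovaries of P0, against 33.1 to 37.3 in wild-type ovaries. Besides Foxl2 itself, Esr2 and Nr5a2 were called at P0, with differences of -2.91 ± 0.51 and -2.96 ± 0.43. Wnt4, on the same list, went the other way at P0 without a call. It was at 1.24 to 1.78 in Foxl2-/- ovaries, against 0.581 to 0.745 in wild-type ovaries. At E13 the sums of these 3 lists overlapped. The Sertoli cell sum was 3.76 to 4.55 in Foxl2-/- ovaries of E16, against 5.18 to 5.67 in wild-type ovaries, and overlapped at E13 and P0. Of its markers Dhh was called higher at E16 (1.92 ± 0.36) and P0 (2.34 ± 0.36). Cst9 was called higher at P0 (1.96 ± 0.45) and Aard lower at E16 (-1.15 ± 0.22). Of all genes 1.40% were called at E13, 0.660% at E16 and 0.825% at P0. The part of all these markers in the Slc8a3 result was not tested.

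In the comparisons that did not serve to choose it, Slc8a3 was called in none by either probe set. These comparisons share arrays with those that chose it. By 1440962_at, Foxl2+/- ovaries of E16 were at 0.0450, 0.0528 and 0.0642, within the range of wild-type ovaries, a difference of 0.52 ± 0.42 (adjusted p = 0.928, limma). Only 0.00667% of all probe sets were called in that comparison. Without the second wild-type array, which at 0.00839 was the lowest of the series, the difference was -0.11. Testes were at 0.0794, 0.0351 and 0.0416 at E13 and at 0.0402, 0.0808 and 0.0746 at P0, inside or just below the range of the ovaries of their stage, with differences of -0.21 ± 0.42 (adjusted p = 0.886) and -0.14 ± 0.42 (adjusted p = 0.835). At E13 6.20% and at P0 25.3% of all probe sets were called between testis and ovary. By this probe set every array of the 4 groups without Foxl2 and with Wnt4 was above the testes of both stages, which is a description, while by 1450311_at the E13 Foxl2-/- ovaries lay at 0.0435 or less and the testes of E13 between 0.0357 and 0.0587.

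Wnt4-null ovaries of E15 had Slc8a3 levels of 0.0449 and 0.0726, against 0.0311 and 0.0480 in control ovaries, a difference of 0.46 ± 0.52 (adjusted p = 0.802, limma). The Wnt4-/- and KitWvWv ovaries of P0 were also labelled Foxl2+/-, so their differences from wild-type ovaries join 2 changes of genotype. At P0 the Wnt4-/- ovaries were at 0.243, 0.112 and 0.0818, against 0.0434, 0.101 and 0.0779 in wild-type ovaries, a difference of 0.81 ± 0.42 (adjusted p = 0.248). KitWvWv ovaries differed from wild-type ovaries by 0.70 ± 0.42 (adjusted p = 0.226), and by 1450311_at, with levels of 0.110, 0.0422 and 0.0865 against 0.0387, 0.0179 and 0.0133, by 1.42 ± 0.55 (adjusted p = 0.0521), with no overlap. Without the second KitWvWv array that value was 1.77 (adjusted p = 0.0331), and without the first wild-type array it was 1.73 (adjusted p = 0.0360). In wild-type ovaries 1440962_at differed by 0.86 ± 0.42 between P0 and E16 (adjusted p = 0.119). Its side of the threshold turned on 1 array and on the scaling. Without the third E16 array the value was 1.50 (adjusted p = 0.0111), and after quantile normalization it was 1.43 (adjusted p = 0.0142). By 1450311_at the difference between P0 and E16 had the opposite sign, at -1.08 ± 0.55 (adjusted p = 0.130), with overlapping arrays.

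In the order of the 15 group means of 1440962_at, the Foxl2-/- ovaries of P0 and the KitWvWv Foxl2-/- ovaries came first, overlapped each other, and did not overlap the next group, the Foxl2-/- ovaries of E16. From there down each group overlapped the next one in the order, through the Foxl2-/- ovaries of E13, the Wnt4-/-Foxl2-/-, the Wnt4-/- and the KitWvWv ovaries to the E15 control ovaries, the lowest group with a mean of 0.0396 ± 0.0120 (SD, n = 2).

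Slc8a1 did not share this pattern. By its 2 brighter probe sets, but not by the other 2, its highest means were in P0 ovaries without Wnt4 and in testes of P0. By the study's account those testes lacked Wnt4 as well. By 1425817_a_at, the brightest of its 4 probe sets, the levels were 0.610, 0.405 and 0.601 in Wnt4-/- ovaries of P0, against 0.298, 0.0910 and 0.198 in wild-type ovaries. The groups did not overlap, and Slc8a1 rose 2.89-fold, or 1.53 ± 0.45 on the log2 scale (adjusted p = 0.0176, limma). It was the only one of the 8 member probe sets called in this comparison, about the share called among all probe sets, 12.7%. The call was lost without the second wild-type array (1.09, adjusted p = 0.184), without the first Wnt4-/- array (1.43, adjusted p = 0.0760) or without the third (1.44, adjusted p = 0.0655). The Wnt4-/-Foxl2-/- ovaries were also high, at 0.400, 0.391 and 0.314. They lay below all 3 Wnt4-/- arrays, with a difference of -0.52 ± 0.45 (adjusted p = 0.777).

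At E15 the levels were 0.406 and 0.316 in Wnt4-null ovaries, against 0.131 and 0.120 in control ovaries. The arrays did not overlap, which with 2 arrays per group can also happen without a real difference. The difference of 1.44 ± 0.55 was not called (adjusted p = 0.217, limma), where 1.73% of all probe sets were. The difference made by loss of Wnt4 was 0.09 ± 0.71 larger at P0 than at E15 (adjusted p = 0.980), in a comparison added after the values were seen, in which 1.34% of all probe sets were called. The second probe set, 1437675_at, had the same sign in both, at 1.04 ± 0.57 at E15 (adjusted p = 0.468) and 0.98 ± 0.46 at P0 (adjusted p = 0.187), without overlap of the arrays and without a call. The dimmer 1440201_at and 1420210_at differed by 0.78 ± 0.48 and 0.57 ± 0.58 at E15. At P0 their sign was the opposite, at -0.06 ± 0.39 and -0.29 ± 0.47, with no call at either stage.

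In testes of P0 1425817_a_at was at 0.328, 0.594 and 0.477, against 0.298, 0.0910 and 0.198 in wild-type ovaries, a rise of 1.31 ± 0.45 (adjusted p = 0.0279, limma) with no overlap. Sex and loss of Wnt4 cannot be told apart in this comparison. The second probe set had levels of 0.234, 0.336 and 0.277 in testes of P0, against 0.142, 0.0771 and 0.0925 in wild-type ovaries, and rose by 1.39 ± 0.46 (adjusted p = 0.0247). These 2 of the 8 member probe sets were called there, about the share called among all probe sets, 25.3%. The call of 1425817_a_at was lost without the second testis (1.12, adjusted p = 0.111), the third testis (1.28, adjusted p = 0.0712) or the second wild-type ovary (0.87, adjusted p = 0.220). That of 1437675_at was lost without the second testis (1.26, adjusted p = 0.0845), the third testis (1.39, adjusted p = 0.0560), the second ovary (1.21, adjusted p = 0.104) or the third ovary (1.33, adjusted p = 0.0683).

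At E13 the probe sets disagreed on the difference between testis and ovary. By 1437675_at testes were at 0.120, 0.152 and 0.124, against 0.143, 0.0206 and 0.0186 in control ovaries, and the difference of 1.47 ± 0.46 was called with an adjusted p of 0.0498, although the first control ovary lay inside the range of the testes. The call was lost when either of the 2 other control ovaries was left out (1.10, adjusted p = 0.257, and 1.05, adjusted p = 0.353) and when any of the 3 testes was left out (1.37 to 1.53, adjusted p of 0.0954, 0.170 and 0.115), with an offset of 5% (0.89, adjusted p = 0.0929) and with the compared groups fitted alone (adjusted p = 0.202). By 1425817_a_at the difference was 0.22 ± 0.45 (adjusted p = 0.886). In the first control ovary of E13 both probe sets were far above the other control ovaries, at 0.548 against 0.106 and 0.0674 by 1425817_a_at. Between P0 and E13 testes, 1425817_a_at differed by 1.22 ± 0.45 (adjusted p = 0.0516), with no overlap, in a comparison in which 19.2% of all probe sets were called. Without the third E13 testis the value was 1.48 (adjusted p = 0.0400), and without the first P0 testis it was 1.44 (adjusted p = 0.0431). The testis-ovary difference was 1.09 ± 0.63 larger at P0 than at E13 (adjusted p = 0.353, limma), in another added comparison, in which 6.62% of all probe sets were called. In these comparisons between stages, stage and loss of Wnt4 in the P0 testes cannot be told apart.

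Smooth muscle markers, from a tissue in which Slc8a1 is known to be active, moved with some of these results. The summed level of 9 such markers was 21.7 to 28.3 in testes of P0, against 10.6 to 14.7 in wild-type ovaries. Of the 9, 6 were called higher there, where 28.9% of all genes were called in either direction. The sum was 14.9 to 15.4 in Wnt4-/- ovaries of P0, against the same 10.6 to 14.7, and 14.1 to 14.2 in Wnt4-null ovaries of E15, against 7.62 to 8.32 in control ovaries. Mylk, the myosin light chain kinase of smooth muscle, was the 1 marker of the 9 called in each, higher by 0.49 ± 0.15 at P0 (adjusted p = 0.0200, limma) and by 0.83 ± 0.18 at E15 (adjusted p = 0.00829). Loss of Wnt4 gave a call for 16.9% of all genes at P0 and 2.10% at E15. Elsewhere the smooth muscle sum did not go with 1425817_a_at. It was 15.3 to 20.6 in KitWvWv ovaries, where that probe set was not called. In Wnt4-/-Foxl2-/- ovaries it was 17.6 to 21.5, above the Wnt4-/- ovaries, while that probe set was lower. The summed level of 9 cardiac muscle markers was 6.64 to 7.55 in Wnt4-/- ovaries of P0, against 1.69 to 2.72 in wild-type ovaries. Steroidogenic cell markers, 5 in number, summed to 9.77 to 19.9 in Wnt4-/- ovaries of P0, against 2.41 to 3.25 in wild-type ovaries. Other lists lay apart in the same comparison. Sertoli cell markers summed to 12.0 to 14.0, against 4.68 to 6.57, and endothelial markers to 10.7 to 11.6, against 6.90 to 7.18. The striated muscle sum was 4.10 to 4.32, against 2.40 to 2.59. Granulosa and pre-granulosa markers summed to 13.3 to 16.8, against 33.1 to 37.3, and germ cell markers to 12.3 to 24.8, against 58.8 to 98.3. Their part in the result was not tested.

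**Figure D2:**
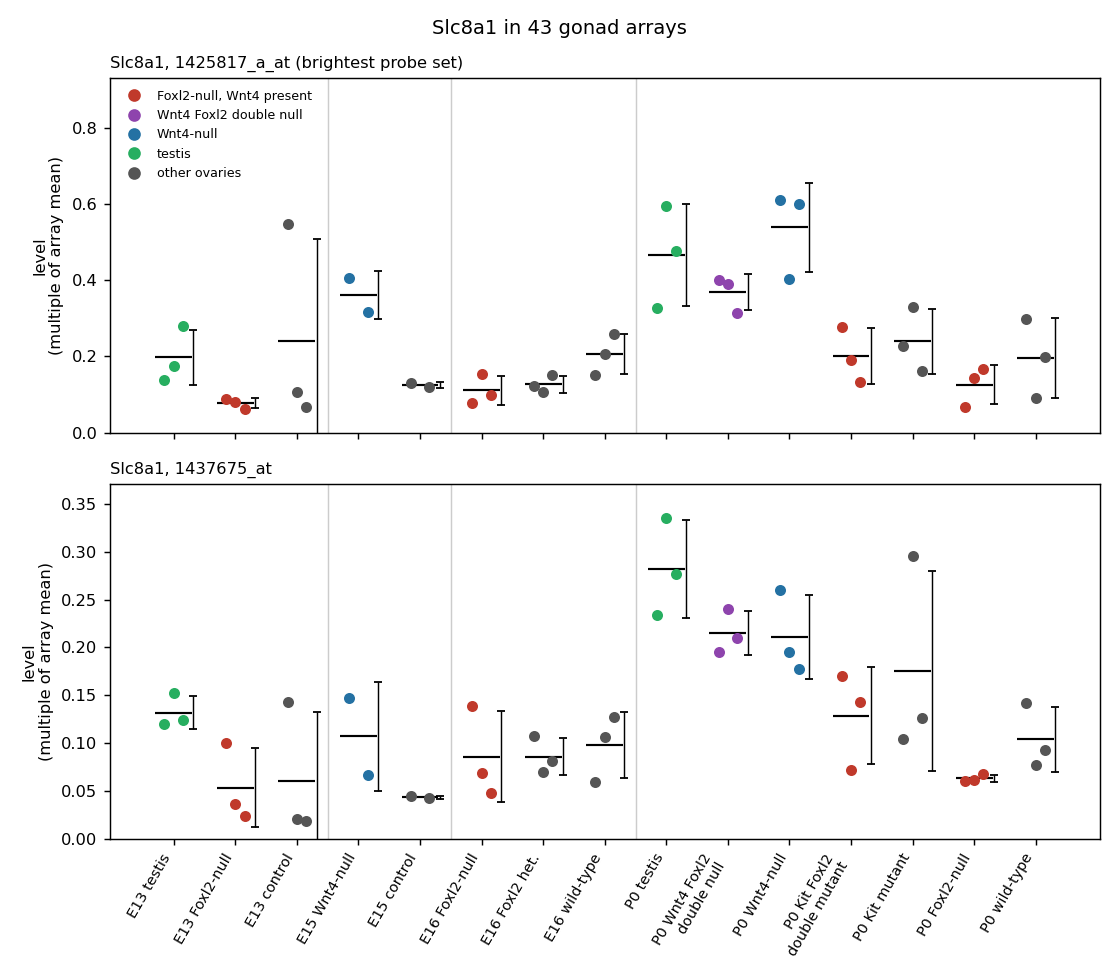
Level of the 2 brightest Slc8a1 probe sets (y axis, multiples of the array mean, from 0) in each of the 43 arrays, by group (x axis). Points are arrays, horizontal bars are group means and vertical bars are 1 SD, drawn down to 0 at most. In the upper panel the P0 Wnt4-/- arrays lie between 0.405 and 0.610, and 1 E13 control array stands at 0.548 above the other 2.

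After loss of Foxl2, Slc8a1 was not called by any of its 4 probe sets, which differed in sign. By 1425817_a_at the mean was lower in Foxl2-/- ovaries at each stage. At E13 the levels were 0.0884, 0.0799 and 0.0631 in Foxl2-/- ovaries, against 0.548, 0.106 and 0.0674 in control ovaries, a difference of -0.98 ± 0.45 (adjusted p = 0.234). At E16 they were 0.0782, 0.154 and 0.1001 in Foxl2-/- ovaries, against 0.152, 0.208 and 0.258 in wild-type ovaries, a difference of -0.86 ± 0.45 (adjusted p = 0.810). At P0 they were 0.0675, 0.143 and 0.167 in Foxl2-/- ovaries, against 0.298, 0.0910 and 0.198 in wild-type ovaries, a difference of -0.54 ± 0.45 (adjusted p = 0.934). The groups overlapped at all 3 stages, and the average over the 3 stages was -0.79 ± 0.26 (adjusted p = 0.112). The first control array of E13 carries much of this. Without it the average was -0.51, whereas without the third control array the average was -0.98 (adjusted p = 0.0234) and the E13 value was -1.55 (adjusted p = 0.0439). The second probe set, 1437675_at, differed by 0.11 ± 0.46 at E13 (adjusted p = 0.924) and averaged -0.24 ± 0.27 (adjusted p = 0.735). At P0 it differed by -0.60 ± 0.46 (adjusted p = 0.914) with no overlap. By 1440201_at the levels at E13 were 0.103, 0.0612 and 0.0637 in Foxl2-/- ovaries, against 0.0399, 0.0368 and 0.0287 in control ovaries, a difference of 0.91 ± 0.39 (adjusted p = 0.207) with no overlap. At P0 the sign was the opposite, with a difference of -0.94 ± 0.39 (adjusted p = 0.513) and overlapping arrays, and the average was 0.09 ± 0.23 (adjusted p = 0.903). The dim 1420210_at differed by 1.14 ± 0.47 at E13 (adjusted p = 0.184) and 0.98 ± 0.47 at E16 (adjusted p = 0.747) with overlapping arrays, and averaged 0.57 ± 0.27 (adjusted p = 0.327). None of the 6 probe sets of Slc8a1 and Slc8a2 was called in any of the Foxl2 comparisons, in Wnt4-null or Kit mutant ovaries included, where 0.658% and 0.811% of all probe sets were called. Nor was any of the 6 called for a change of its Foxl2 difference without Wnt4 or in Kit mutants, where 0.273% and 0.0178% of all probe sets were called.

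The 2 remaining Slc8a1 probe sets did not follow the brighter pair. The log2 group means of 1437675_at had a Pearson r of 0.84 with those of 1425817_a_at over the 15 groups, those of 1440201_at 0.22 and those of 1420210_at -0.47. By 1440201_at the levels were 0.0735, 0.160 and 0.238 in KitWvWv ovaries, against 0.0321, 0.0617 and 0.0939 in wild-type ovaries, a difference of 1.16 ± 0.39 (adjusted p = 0.0260) with overlapping arrays. In that comparison 26.1% of all probe sets were called and the median probe set differed by 0.28, a shift that quantile normalization left at 0.07. The call was not kept after quantile normalization (0.81, adjusted p = 0.140) or scaling to a common median (0.91, adjusted p = 0.0854), or with the compared groups fitted alone (adjusted p = 0.108). It was also lost without the first wild-type array (0.82, adjusted p = 0.156), the second wild-type array (1.20, adjusted p = 0.0566), the second KitWvWv array (1.08, adjusted p = 0.0743) or the third (0.81, adjusted p = 0.167). The probe set 1420210_at was at 0.101 or less in every array with a median of 0.0158, near the offset, and was called in no comparison.

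Slc8a2, the exchanger known mainly from brain, was low in all 15 groups. By 1438262_at, its brighter probe set, the 43 arrays lay between 0.0329 and 0.329 with a median of 0.125, and every group overlapped its neighbour in the order of means. The highest group means were 0.232 ± 0.0828 in Wnt4-/-Foxl2-/- ovaries and 0.216 ± 0.112 in Wnt4-/- ovaries (SD, n = 3 each), and the lowest was 0.0712 ± 0.0334 in Foxl2-/- ovaries of P0. This probe set was called in no comparison. The values were 0.104, 0.214 and 0.329 in Wnt4-/- ovaries, against 0.0923, 0.135 and 0.105 in wild-type ovaries of P0, and the difference was 0.78 ± 0.41 (adjusted p = 0.251). The averaged difference after loss of Foxl2 was -0.14 ± 0.24 (adjusted p = 0.835).

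The other Slc8a2 probe set, 1428054_at, fell between stages of the wild-type ovary. It was at 0.0624, 0.0543 and 0.0663 at P0, against 0.104, 0.126 and 0.163 at E16, a difference of -0.97 ± 0.28 (adjusted p = 0.0102) with no overlap. In this comparison 29.7% of all probe sets were called and the median probe set differed by -0.36, a shift that quantile normalization left at -0.03. The call was not kept after quantile normalization (-0.43, adjusted p = 0.210), after scaling to a common median (-0.61, adjusted p = 0.0870) or without the third E16 array (-0.81, adjusted p = 0.0682). It was higher in KitWvWv than in wild-type ovaries by 0.69 ± 0.28 (adjusted p = 0.0697), with no overlap and no call. No member was called between E16 wild-type and E13 control ovaries, where 7.51% of all probe sets were.

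**Figure D3:**
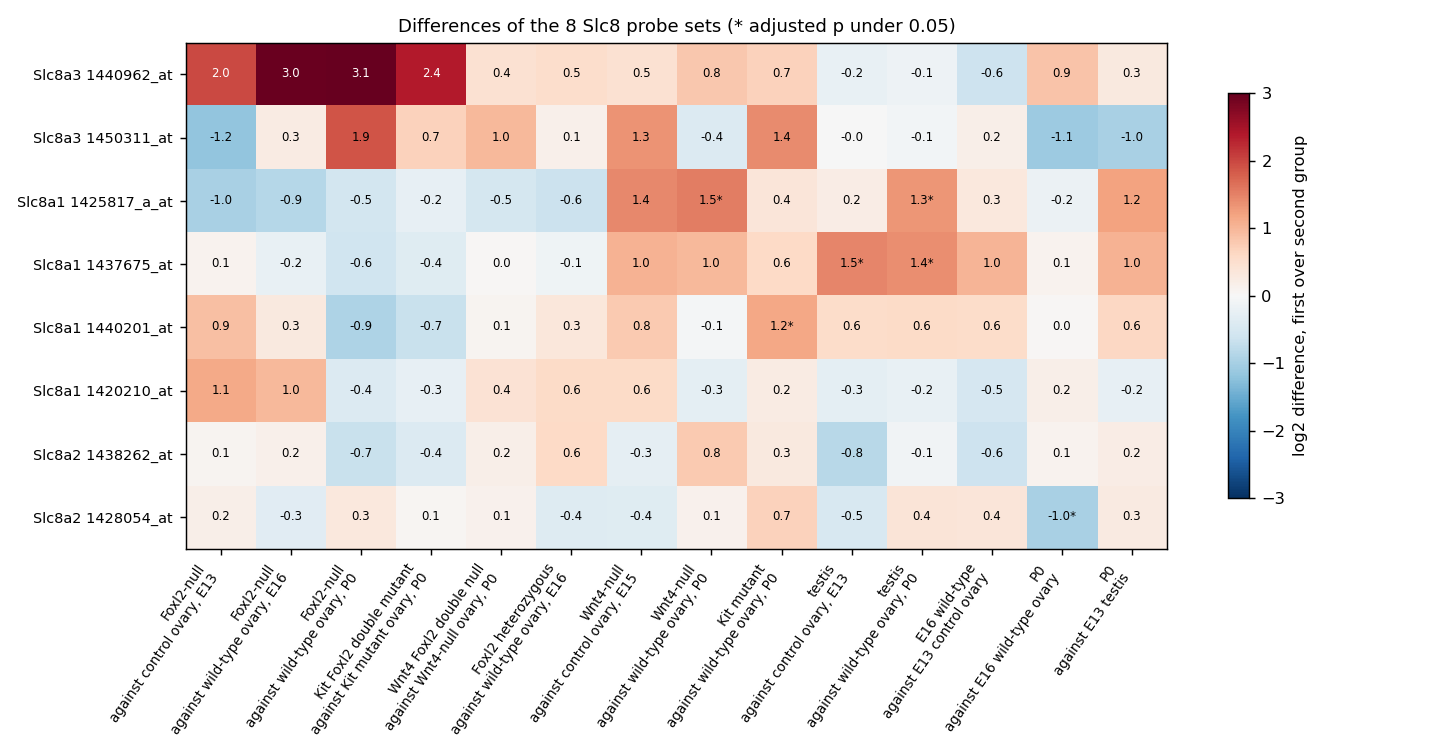
Differences on the log2 scale of the 8 exchanger probe sets (rows) in 14 comparisons (columns), each the first named group over the second. Red is higher and blue is lower in the first group, and a star marks an adjusted p under 0.05; Slc8a3 was not tested in the 5 columns of Foxl2-null or double mutant ovaries. The values of 1440962_at run between 1.98 and 3.09 in the 3 Foxl2-null columns, and those of the Slc8a1 and Slc8a2 rows there run between -0.98 and 1.14.

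Genes that shape calcium and the sodium gradient around the exchangers were read beside them. Of 65 such genes listed by function, 56 were measured, each taken by its brightest probe set. They were 5 other cation exchangers, 9 calcium pumps, 11 sodium pump subunits and FXYD regulators, 16 subunits of voltage-gated calcium channels, 10 genes of calcium release and store-operated entry, and 5 of mitochondrial calcium uptake. Among these 56, 1 fell at E13, where 1.40% of 18184 genes were called, 2 rose at E16 (0.660% of all genes), 1 fell at P0 (0.825%), 2 fell in the average of the stages (1.86%), 2 fell in Kit mutants (1.14%) and none was called in Wnt4-null ovaries (0.924%). No other exchanger, calcium pump or mitochondrial uptake gene was called in these comparisons. The median of the 56 differed by -0.01 at E13, 0.00 at E16 and 0.00 at P0, and the median of all genes by 0.05, -0.03 and -0.03.

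Itpr2, an inositol trisphosphate receptor that releases calcium from the endoplasmic reticulum, fell by 1.01 ± 0.23 in Foxl2-/- ovaries of E13 (adjusted p = 0.0172), by 1.02 ± 0.23 in KitWvWv Foxl2-/- ovaries (adjusted p = 0.0225) and by 0.72 ± 0.13 in the average (adjusted p = 0.00169). It also fell by 0.99 ± 0.23 in Wnt4-/- ovaries of P0 (adjusted p = 0.00273) and by 2.06 ± 0.23 in testes of both stages (adjusted p = 4.66e-08 at E13 and 1.71e-08 at P0). Cacna1b, the pore of the N-type calcium channel, fell by 1.50 ± 0.25 in Foxl2-/- ovaries of P0 (adjusted p = 0.000547) and by 0.84 ± 0.15 in the average (adjusted p = 0.000681). Cacna2d2, an auxiliary calcium channel subunit, fell by 2.68 ± 0.45 in KitWvWv Foxl2-/- ovaries (adjusted p = 0.000946). Cacna1d, the pore of an L-type channel, rose by 1.31 ± 0.28 in Foxl2-/- ovaries of E16 (adjusted p = 0.0154), and Fxyd6, a sodium pump regulator, rose by 1.41 ± 0.30 there (adjusted p = 0.0165).

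After loss of Wnt4 at E15, 3 of the 56 rose, where 2.10% of all genes were called, and none was called with the compared groups fitted alone. They were Atp2b4, a plasma membrane calcium pump, by 2.08 ± 0.46 (adjusted p = 0.00974), Cacna2d1, by 1.45 ± 0.35 (adjusted p = 0.0204), and Cacna1b, by 1.15 ± 0.31 (adjusted p = 0.0451). At P0 5 of the 56 rose and 4 fell, where 16.9% of all genes were called. Atp2a3, a pump of the endoplasmic reticulum, rose by 1.47 ± 0.26 (adjusted p = 8.97e-05). Among sodium pump genes Atp1b2 rose by 0.96 ± 0.22 (adjusted p = 0.00240), Fxyd7 by 1.49 ± 0.42 (adjusted p = 0.0130) and Fxyd5 by 0.91 ± 0.26 (adjusted p = 0.0136), and the channel subunit Cacnb4 rose by 1.20 ± 0.28 (adjusted p = 0.00283). Atp2c1, a calcium pump of the Golgi, fell by 0.85 ± 0.13 (adjusted p = 1.88e-05), the plasma membrane pump Atp2b3 fell by 1.74 ± 0.42 (adjusted p = 0.00396), and Letm1, a mitochondrial ion carrier, fell by 0.64 ± 0.20 (adjusted p = 0.0246).

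Between testis and ovary at E13, 2 of the 56 were higher and 6 lower in testis, where 8.14% of all genes were called, and at P0 12 were higher and 11 lower, where 28.9% were. Atp1b1, a beta subunit of the sodium pump, fell by 0.77 ± 0.13 in testes of E13 (adjusted p = 0.000126) and fell by 1.88 ± 0.13 in testes of P0 (adjusted p = 7.33e-13). In KitWvWv ovaries 17 of the 56 were higher and 7 lower, where 30.6% of all genes were called. After quantile normalization 7 were higher and 7 lower, and after scaling to a common median 7 and 11. At P0 the testis counts were 7 higher and 12 lower after quantile normalization, and 8 and 13 after scaling to a common median.

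**Figure D4:**
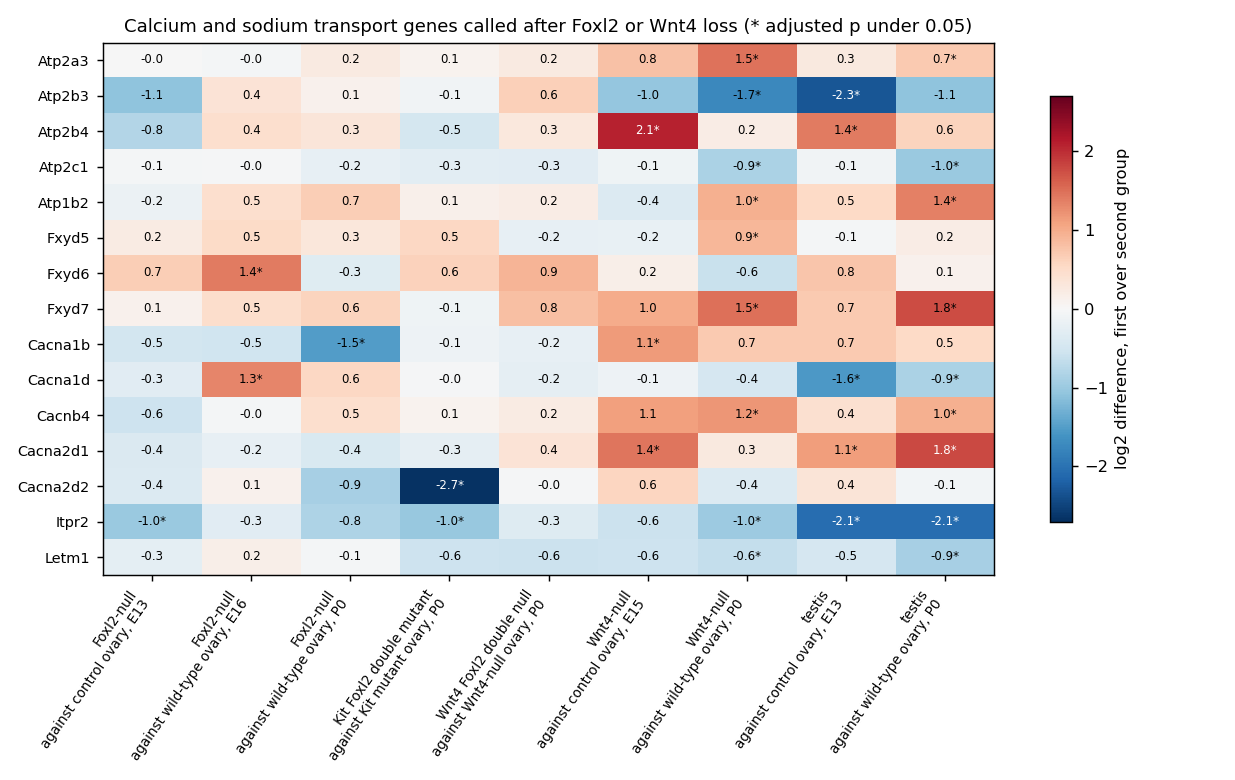
Differences on the log2 scale of the 15 calcium and sodium transport genes called after loss of Foxl2 or Wnt4 (rows) in 9 comparisons (columns), each the first named group over the second. Red is higher and blue is lower in the first group, and a star marks an adjusted p under 0.05. Itpr2 is lower by 1.01 in the E13 Foxl2-/- ovaries and by 2.06 in the testes of both stages.

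The genes whose group means followed Slc8a3 most closely were found by Pearson r of log2 group means over the 15 groups, among 12617 genes whose highest group mean lay above the median of all probe sets. The first 8 were Ptpre, a receptor-type tyrosine phosphatase, with an r of 0.84, Pdgfc, a platelet-derived growth factor, with 0.83, Rasl10a with 0.82, Litaf with 0.81, Smoc1, a secreted calcium-binding matrix protein, with 0.80, Stra6, the receptor for retinol-binding protein, with 0.80, Mrps23, a mitochondrial ribosomal protein, with 0.80, and Adamts8, a secreted metalloprotease, with 0.79. These are descriptions over groups that share the Foxl2 genotype. Rank correlation over the group means shared 4 of the 8, and Pearson r over the 43 arrays shared 5.

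Their size and their values without Wnt4 differed. Stra6 differed by 1.20 at E13, 1.42 at E16 and 1.09 at P0 between Foxl2-/- ovaries and their references, and by -1.71 between Wnt4-/-Foxl2-/- and Wnt4-/- ovaries, where its mean level was 0.190 in the double nulls against 0.609. Ptpre differed by 0.49, 1.64 and 0.92 at the 3 stages and by -0.33 without Wnt4. Adamts8 differed by 1.42, 1.48 and 0.82 at the 3 stages and by 0.75 without Wnt4. Pdgfc was bright in every group, with means of 1.51 to 4.57, and differed by 0.44, 0.39 and 0.72 at the 3 stages.

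**Figure D5:**
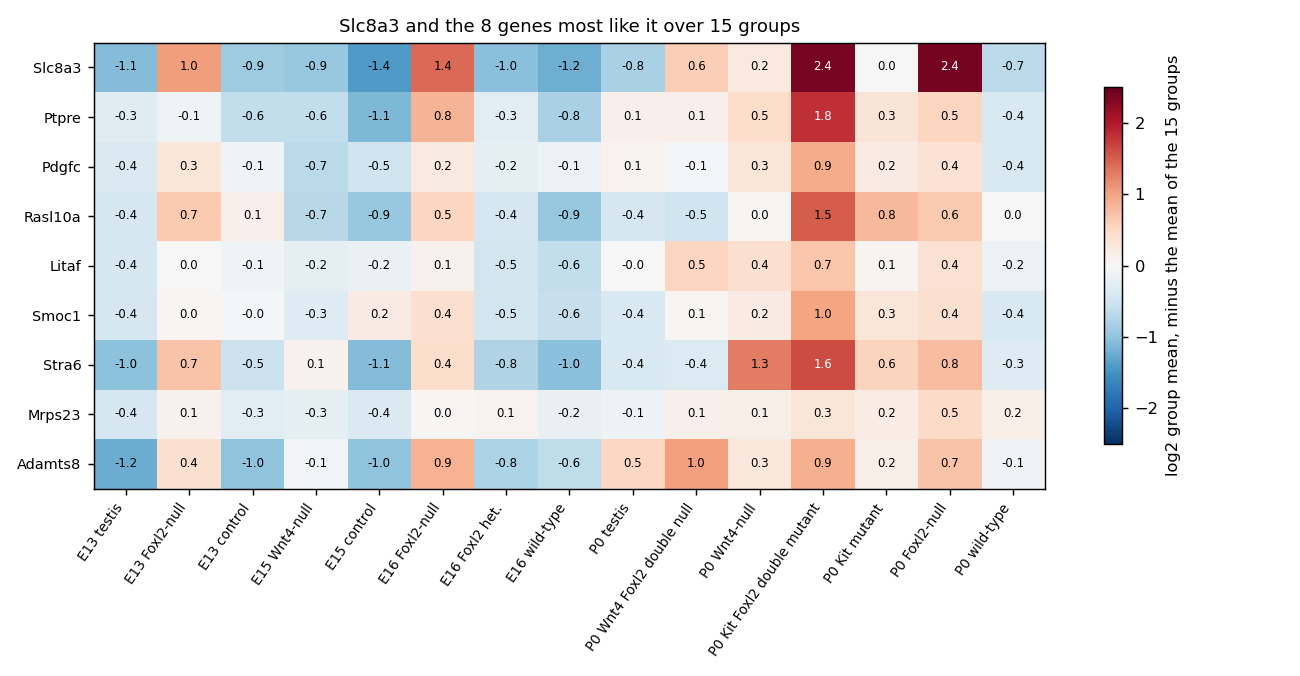
Log2 of the group mean level plus 1% of the array mean, with the mean of the 15 groups taken off, for Slc8a3 by 1440962_at and the 8 genes with the highest r to it (rows), in the 15 groups (columns). Red is above and blue below the gene's own mean, and the P0 Foxl2-null and Kit Foxl2 double mutant columns are red in all 9 rows, while Stra6 is red in the P0 Wnt4-null column and blue in the double null column.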

How the data were processed

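The authors extracted RNA from gonads of individual mice, amplified it in a single linear round and hybridised it to Affymetrix MOE430 arrays. They deposited linear intensities, made with plier in R and scaled so that every array has the same mean, 1.597e+07 intensity units. Per the labels' processing notes GCOS 1.3 was also used, in a role not given. The probe-to-gene table named 1 gene for 34927 of 45007 non-control probe sets, several for 930 and none for 9150, and 34723 matched a RefSeq gene. The genome build behind the array annotation is not given in the sources used here.

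Of 45071 deposited probe sets, 64 controls were left out. Log2 of the intensity plus 1% of the common mean was fitted with limma 3.58.1 (R 4.3.3), 15 group means over 43 arrays, eBayes with trend, 28 residual degrees of freedom, p-values adjusted by Benjamini and Hochberg's method across the 45007 and a threshold of 0.05, two-sided. A gene was taken by its brightest probe set. There were 17 comparisons and 2 added later on changes between stages. Named were all exchanger probe sets, the 8 genes most like Slc8a3, up to 4 called genes of each transport list with the smallest adjusted p, and Foxl2 and Wnt4. Snap25, Mylk and Tnni3 fall outside this rule and were named after their values were seen, as called markers of their lists. So were the markers named from the red cell, Sertoli and granulosa lists. Members and lists were chosen with earlier results of these data known. Of 65 transport and 110 marker genes, 56 and 101 were analysed here. Each array is a mouse, and the number of arrays limits the precision. Array medians ran between 0.180 and 0.295 of the common mean.

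Replicate numbers are in the titles. In the E13 Foxl2 comparison same-numbered arrays deviated together, with correlations of 0.132 to 0.158 over probe sets in the 3 pairs, and those numbers were read as pairs from the data; elsewhere they were not. Figures were drawn with matplotlib 3.10.9.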

Additional observations from a re-analysis of the deposited data

Results flagged for a closer look

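Groups here hold 2 or 3 arrays, too few for a test of outlying arrays. None of the 6 probe sets of Slc8a1 and Slc8a2 passed a test of a change in its difference between genotypes or stages, and Slc8a3 was not tested for a change of its Foxl2 difference.

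Among the transport genes, the test of the change itself was passed by 4. The testis-ovary difference was lower at P0 than at E13 by a log2 value of -0.91 for Atp2c1 and of -1.11 for Atp1b1, and higher by 1.89 for Fxyd2. The Wnt4-null difference was higher at P0 than at E15 by 1.34 for Atp1b2, whose values were -0.38 at E15 and 0.96 at P0, with arrays apart both times. Fxyd5 lay apart from its reference in opposite directions, at 0.91 at P0 and -0.20 at E15, and the test of that change was not passed (adjusted p = 0.183, limma). Both changes between stages were compared after the values were seen.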

How the results depend on the processing

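Of 944 values of 60 results recomputed under another choice, 844 kept their direction and call or moved by less than the replicate spread. With an offset of 5% of the array mean the Slc8a3 differences (1440962_at) after loss of Foxl2 were 1.50 at E13, 2.11 at E16 and 2.58 at P0, smaller by the construction of the offset. The Slc8a3 difference (1440962_at) between P0 and E16 wild-type ovaries was called after quantile normalization (1.43) and median scaling (1.18). By 1450311_at it had the opposite sign, at -1.08 without these changes. The Slc8a1 difference (1425817_a_at) between P0 and E13 testes was called with the 5% offset (1.07), quantile normalization (1.24), median scaling (1.21), only probe sets above the median in some group (1.22) and a fit on the compared groups alone (1.22). For these the cause was not tested. Probe sets below that median in every group have no value under that filter.

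The number of the 56 transport genes called after loss of Foxl2, with the compared groups fitted alone, was 0 at E13, 1 at E16, 0 at P0, 0 in Kit mutants and 1 without Wnt4, and it was 0 for loss of Wnt4 at E15 and 15 for Kit mutants. It was 2 at E13 with each gene taken by its smallest p, 4 in the stage average and 14 in Kit mutants after quantile normalization, and 1 without Wnt4 with the filter. Of the 8 genes most like Slc8a3, 4 were shared by rank correlation and 5 by correlation over arrays.

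With the replicate number as a block, the paired fit, the count without Wnt4 was 1 against 0, and no call of an exchanger probe set changed; the E13 Slc8a1 difference kept -0.98 (adjusted p = 0.149, limma).

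Leaving out 1 array at a time, Slc8a1 by 1425817_a_at ran between -1.55 and -0.13 for loss of Foxl2 at E13, -0.98 and -0.51 for the stage average, -0.50 and 0.0024 for loss of Foxl2 in Kit mutants, 1.09 and 1.90 for loss of Wnt4 at P0, -0.35 and 1.08 for testis against ovary at E13, 0.87 and 1.68 at P0, 1.01 and 1.48 for P0 against E13 testis, and -0.35 and 0.46 for the change of the Wnt4 difference. Slc8a3 by 1440962_at ran between 1.68 and 2.18 for loss of Foxl2 at E13, 2.33 and 3.60 at E16, 2.80 and 3.33 at P0 and 0.14 and 0.87 without Wnt4, -0.11 and 1.16 for Foxl2+/- against wild-type ovary at E16, -0.44 and 0.12 for testis against ovary at P0, -1.27 and 0.0019 for E16 against E13 ovary, and 0.23 and 1.50 for P0 against E16 ovary. The transport gene counts ran between 0 and 5 for loss of Foxl2 at E13, 0 and 2 at E16, 1 and 2 at P0, 2 and 4 in the average, 1 and 2 in Kit mutants and 0 and 1 without Wnt4, between 0 and 3 for loss of Wnt4 at E15, 14 and 22 for Kit mutants, and 5 and 8 for testis against ovary at E13. Where leaving out an array left a single one in an E15 group, that array was assumed to vary like the other groups. Most exchanger probe sets were dimmer than the median probe set of 0.256, and without detection calls a level near the 1% offset has no known distance from background.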
